A study of Mus musculus with 12 samples.

Results

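The genes described here are the variable (V) and joining (J) segments of the mouse T cell receptor (TCR) alpha locus. They were chosen by symbol, as every row of the count tables whose name begins with Trav or Traj and a number. The rule gave 190 of 53656 gene rows, 130 Trav and 60 Traj. Of these, 67 Trav and 27 Traj, 94 in all, had enough counts to be tested. RNA was counted in immature thymocytes sorted from mice whose genotype label for every library includes Zfp148 fl/fl and Zfp281 fl/fl, so the floxed alleles were present in controls as well. The ImCD4 gate took CD69+, CD44low, H2-Kb- cells that were CD4+ and CD8-. The ImCD8 gate took CD69+, CD44low, TCRb+ cells that were CD8+ and CD4-. Each of the 4 groups, titled Ctrl ImCD4, Zfp148/281 dKO ImCD4, Ctrl ImCD8 and Zfp148/281 dKO ImCD8, had 3 libraries. In a dKO (double knockout) group Cd4-Cre removes the floxed parts of both zinc finger genes from the double-positive stage onward, and the ImCD4 controls are marked as Cd4-Cre negative. Strain, age, sex and pooling of animals are not stated in the labels.

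For the 6 ImCD8 libraries the genotype label is the opposite of the title. Groups follow the titles, and Zfp148 followed them too, at 162 to 182 CPM (counts scaled to library size) in the libraries titled control and 45.6 to 68.9 CPM in those titled dKO, so "dKO ImCD8" below means the libraries so titled. Zfp281 ranged from 112 to 562 CPM in the libraries titled control and from 10.2 to 21.4 CPM in those titled dKO. Gene counts per library ran from 7315833 to 10943143. Of these counts, 2816 to 4452 per library fell on Trav segments and 396 to 1002 on Traj segments. Replicate numbers used here follow the order in which the libraries of a group are listed and are not in the labels. Replicate 3 of each group, 4 libraries in all, stood apart from the other 8 on the third principal component, which carried 5.31% of the variance. The labels name no batch, and the main fit had no term for this split. The marker genes of the gates matched the labels: Cd4 and Zbtb7b summed to 1326 to 1653 CPM in ImCD4 libraries and 1.49 to 11.4 CPM in ImCD8 libraries, and Cd8a, Cd8b1 and Itgae to 81.0 to 232 CPM and 4325 to 4614 CPM. Whether the 3 libraries of a group are separate mice is not stated, and if they are not, the p-values reflect technical spread alone.

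An alpha chain gene is assembled in double-positive thymocytes by joining a V segment to a J segment, which deletes the DNA between them. The locus can be rearranged repeatedly on the same allele: first joins tend to use V segments near the J cluster and J segments at its 5′ end (high Traj numbers), and later joins reach more distant V segments and J segments nearer the constant gene Trac (low numbers). The primary transcript of a joined allele runs through the chosen J, all J segments downstream of it and Trac, and splicing removes the unused J segments as part of the intron. Reads counted on a J segment can therefore come from a joined J in spliced RNA or from an unused J in unspliced RNA, and these could not be told apart in gene counts. In bulk samples, fewer cells using a segment and less RNA per cell cannot be told apart either.

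A J segment that can be used usually encodes the motif Phe-Gly-X-Gly, which holds the J region in the variable domain fold. It was searched by its codons on the coding strand only, in any reading frame and with any base allowed at the last position of each codon, so a leucine codon in place of the phenylalanine would also have matched. The motif was found in 46 of 60 Traj segments (76.7%) and absent from 14, including 7 of the 9 annotated J pseudogenes. The sequences below, from GENCODE M21 transcripts on GRCm38 (mm10), show why the J counts need care, since 3 of the 4 J segments with the most counts do not carry the motif. Each is the whole annotated J exon on the plus strand of chromosome 14, 5′ to 3′, with the motif in capitals where found. Traj19 lies at chr14:54200386-54200446, Traj18 at chr14:54200777-54200842, Traj8 at chr14:54209918-54209954 and Traj20 at chr14:54199441-54199498. Traj21 (chr14:54198790-54198846) is shown as a neighbour with the motif, Traj33 (chr14:54185358-54185414) as the J of the mucosal-associated invariant T (MAIT) cell chain, which has tryptophan in place of the phenylalanine, and Traj50 (chr14:54167590-54167652) as a J from the 5′ end.
Traj19: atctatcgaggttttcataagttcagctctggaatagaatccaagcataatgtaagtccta
Traj18: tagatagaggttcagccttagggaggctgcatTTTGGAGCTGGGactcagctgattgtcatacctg
Traj8: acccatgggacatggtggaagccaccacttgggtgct
Traj20: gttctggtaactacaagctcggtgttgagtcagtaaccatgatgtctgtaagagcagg
Traj21: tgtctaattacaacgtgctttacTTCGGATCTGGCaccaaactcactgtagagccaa
Traj33: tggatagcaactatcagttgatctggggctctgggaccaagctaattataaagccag
Traj50: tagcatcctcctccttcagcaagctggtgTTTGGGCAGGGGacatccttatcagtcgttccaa

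V segments differ from their relatives by few bases, because a stretch of the locus is present in several copies, named with d or n after the family number. The windows below hold some of the variable positions of segments whose counts are compared later. Each is the 60-base window with the most differences within the last 240 coding bases of its set, with capitals at positions that vary within the set. Trav16d-dv11 has the same window as Trav16n, and Trav14n-3 the same as Trav14d-3-dv8, so the windows do not separate those pairs. Trav16 lies at chr14:53743596-53743655, Trav16n at chr14:53351512-53351571, Trav14-1 at chr14:53554319-53554378, Trav14-2 at chr14:53640986-53641045, Trav14-3 at chr14:53763455-53763514 and Trav14d-3-dv8 at chr14:53078806-53078865, all on the plus strand.
Trav16: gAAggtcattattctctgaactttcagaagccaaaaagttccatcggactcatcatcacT
Trav16n: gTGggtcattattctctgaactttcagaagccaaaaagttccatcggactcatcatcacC
Trav14-1: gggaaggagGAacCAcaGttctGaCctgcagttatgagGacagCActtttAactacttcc
Trav14-2: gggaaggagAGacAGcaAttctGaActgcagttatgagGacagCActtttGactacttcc
Trav14-3: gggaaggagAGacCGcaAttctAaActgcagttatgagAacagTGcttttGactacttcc
Trav14d-3-dv8: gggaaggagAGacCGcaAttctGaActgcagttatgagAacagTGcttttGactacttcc

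Over those 240 bases Trav16 and Trav16n were 98.8% identical, and the 5 tested Trav14 segments were 92.5% to 98.3% identical to each other. Trav11 and Trav11d, the V segments of the invariant natural killer T (NKT) cell chain, were identical over all 240. Reads with several equal alignments were tallied in a row of their own, outside the gene counts. Of 45 Trav segments in which under 5% of the 50-base stretches were absent from every other annotated TCR alpha segment, 27 had no count in any library and 1 could be tested. Of 54 with at least 50% such stretches, 40 could be tested. Reads split between near-identical copies remain uncertain, and values of single V segments below carry that limit.

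Across all 12 libraries the J counts formed the same landscape, with most counts at the 3′ end and peaks at a few segments. Traj19 held the largest mean share of Traj counts, 8.22%, followed by Traj18 with 6.88%, Traj8 with 5.39%, Traj20 with 5.33%, Traj21 with 5.20% and Traj17 with 4.78%. J exons differ in length, from 29 to 72 bases, and per annotated base Traj8 came first with 12.3 counts, then Traj19 with 11.3, Traj18 with 8.67 and Traj20 with 7.91, against a median of 1.30 over the J segments. Traj8, annotated as a pseudogene, and Traj19 and Traj20, annotated as genes, all lack the motif. Together, J segments without the motif held 26.1% to 33.3% of Traj counts in every library, and annotated J pseudogenes 8.39% to 13.1%. A sizeable share of J counts in each group therefore fell on exons that do not encode the motif. These exons include Traj33, so absence of the motif alone does not mark a J segment as unusable.

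**Figure D1:**
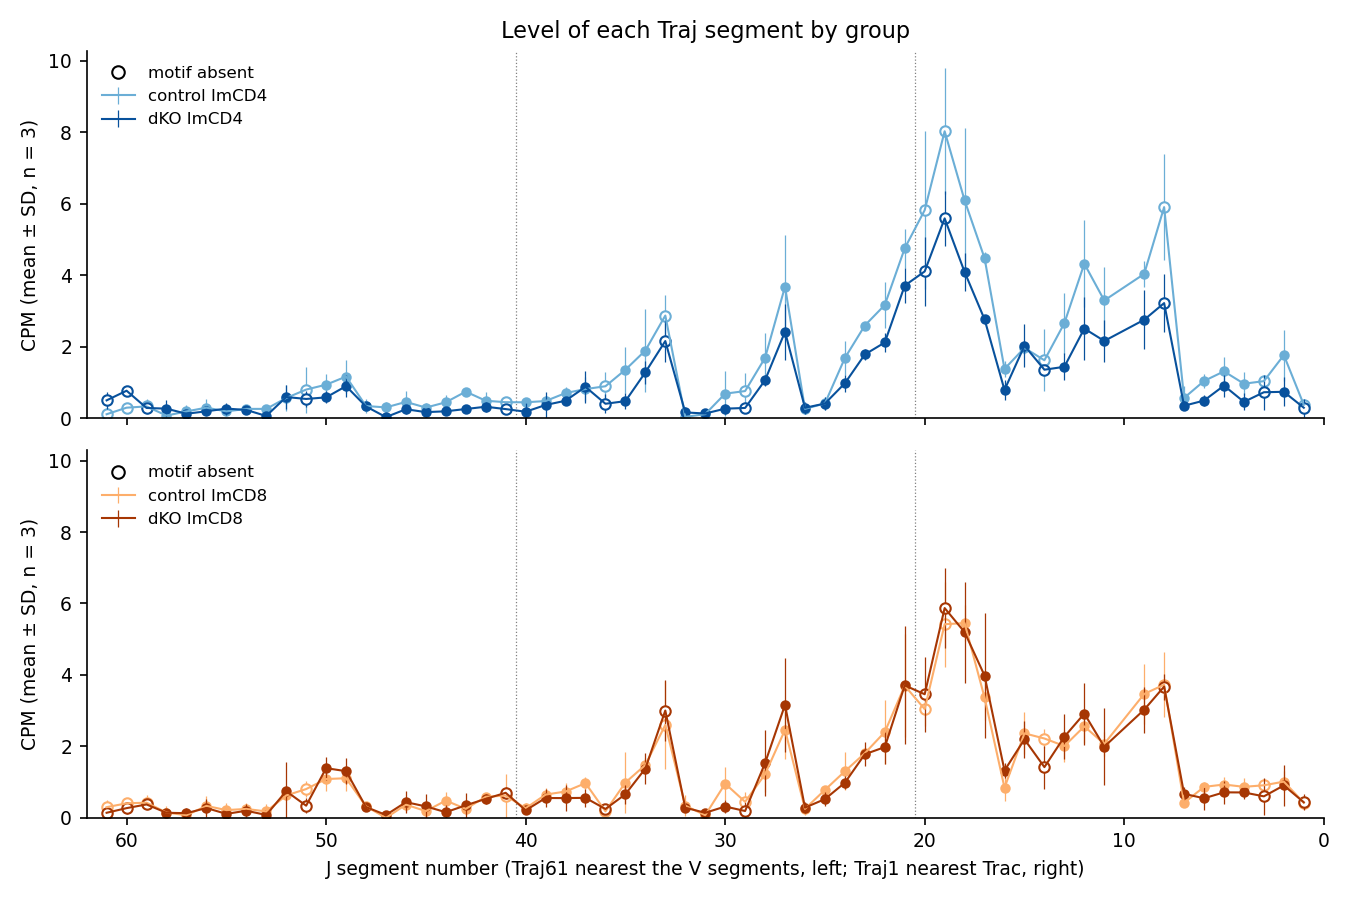
Mean level of each of the 60 Traj segments (CPM, y axis) against its number (x axis, Traj61 nearest the V segments at left, Traj1 nearest Trac at right), with error bars of 1 SD over 3 libraries. Open circles are segments without the Phe-Gly-X-Gly motif and dotted lines divide the 5′, middle and 3′ classes. The ImCD4 control line lies above the dKO line over most segments, while the ImCD8 lines overlap.

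Ordered by number, the 19 segments Traj1 to Traj20 held 54.4% to 61.1% of Traj counts in every library. The 20 segments Traj21 to Traj40 held 28.3% to 34.1%, and the 21 segments Traj41 to Traj61 held 8.07% to 13.1%. The count-weighted mean J number lay between 20.6 and 23.3. The effective number of J segments, the exponential of the Shannon entropy of the shares, was 32.9 to 38.2. These ranges include libraries of all 4 groups, and J counts differed far more between segments than between groups.

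In ImCD4 thymocytes the summed Traj level, scaled to library size, was lower in all dKO than in all control libraries, while the summed Trav level overlapped. The summed Traj level was 118, 89.4 and 77.5 CPM in the 3 control ImCD4 libraries and 70.1, 59.1 and 61.9 CPM in the 3 dKO ImCD4 libraries. Every dKO value lay below every control value, a difference of -31.2 ± 12.5 CPM (SE) and a ratio of 0.671. Without scaling the groups overlapped, with 1002, 809 and 731 Traj counts in control ImCD4 and 786, 618 and 579 in dKO ImCD4, whose libraries also held more gene counts. Set against the constant gene they overlapped too, at 11.5, 8.89 and 7.36 Traj counts per 100 Trac counts in control and 7.66, 5.94 and 6.05 in dKO. In ImCD8 the summed Traj level was 87.5, 64.1 and 71.6 CPM in control and 50.3, 87.8 and 79.0 CPM in dKO. Those groups overlapped, with the lowest and the highest value both in dKO, and differed by -2.03 ± 13.3 CPM. The summed Trav level ran from 352 to 387 CPM in control ImCD4 and from 339 to 378 CPM in dKO ImCD4, which overlapped. Trac, the single constant gene, did not pass the test for dKO against control in either population (log2 fold change -0.07 ± 0.07 in ImCD4 and -0.05 ± 0.07 in ImCD8).

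The summed Traj level moved with the share of reads that fell outside any annotated gene. That share was 16.4%, 14.6% and 13.6% in control ImCD4 and 12.9%, 10.5% and 11.9% in dKO ImCD4, again without overlap. In ImCD8 it was 14.0%, 10.6% and 12.2% in control and 12.2%, 12.9% and 14.0% in dKO, which overlapped. The libraries had the same order by both measures in 3 of the 4 groups. Traj counts per 10000 reads outside any gene were 5.48, 4.82 and 4.52 in control ImCD4 and 4.31, 4.55 and 4.09 in dKO ImCD4, where the groups overlapped. Other library measures moved with the same groups. Mitochondrial genes took 1.31%, 1.07% and 1.09% of gene counts in control ImCD4 and 0.921%, 0.633% and 0.961% in dKO ImCD4, and ambiguous reads were 5.37% to 5.46% of tallied reads in control and 5.55% to 5.67% in dKO. Neither measure overlapped in ImCD4, and both overlapped in ImCD8. The part of these measures in the lower summed Traj level was not tested.

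**Figure D2:**
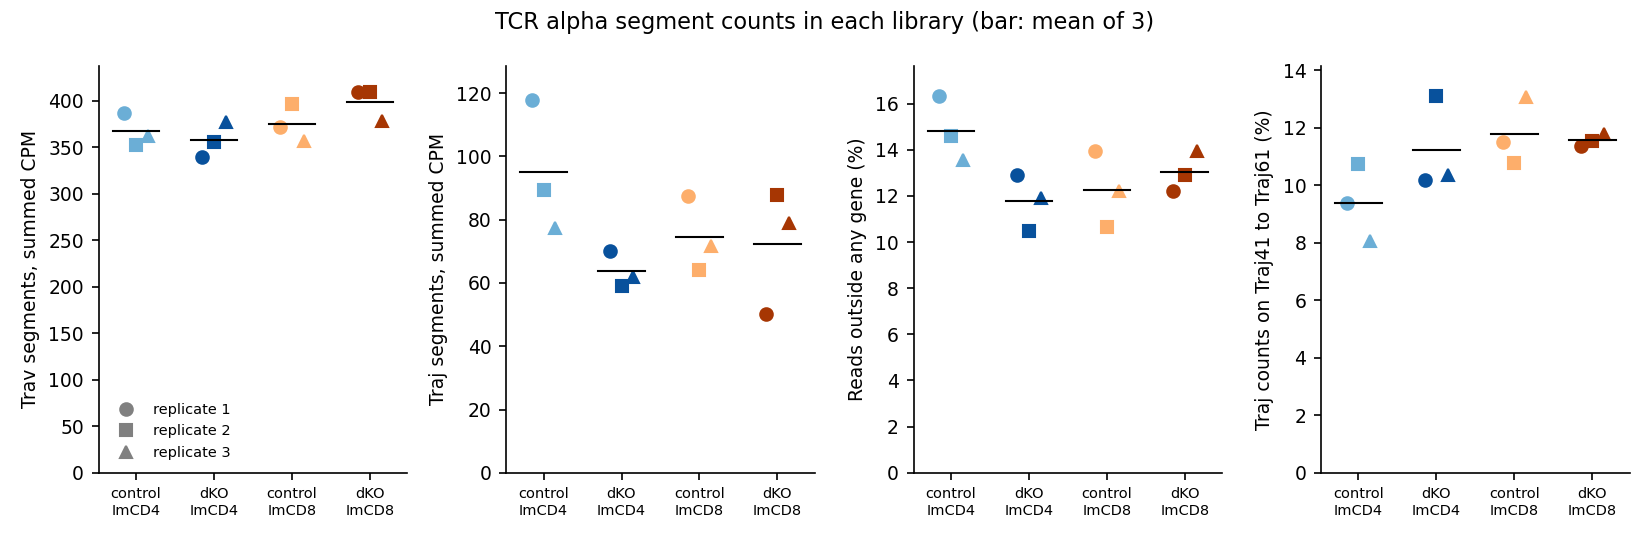
Summed Trav level, summed Traj level (both CPM), reads outside any gene (percent of tallied reads) and the share of Traj counts on Traj41 to Traj61 (percent) in each of the 12 libraries, with a bar at the mean of 3. In ImCD4 the dKO libraries lie below all controls for the Traj level and for reads outside genes, and the Trav levels overlap.

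Among single J segments, the lower level in dKO ImCD4 was spread over the cluster. The log2 fold change for dKO against control was below 0 for 25 of 27 tested Traj segments, with a median of -0.57, against a median of 0.02 over all 13383 tested genes. These segments were read in the same libraries and make up most of the sum above, so they are not separate observations. The share of all tested genes below 0 was not counted. The pseudogene Traj8 was the only one to pass the edgeR test, while 6.16% of all tested genes passed as lower in this comparison. Traj8 was at 7.30, 6.08 and 4.34 CPM in control ImCD4 and 3.84, 2.30 and 3.53 CPM in dKO ImCD4. It fell without overlap (log2 fold change -0.87 ± 0.26, edgeR adjusted p = 0.0364). In ImCD8 Traj8 was at 4.15, 2.68 and 4.36 CPM in control and 3.43, 3.50 and 4.09 CPM in dKO, and the groups overlapped. The Traj8 call was lost when any of 4 libraries was left out, with an adjusted p of 0.162 without control ImCD4 replicate 1, 0.0937 without control ImCD4 replicate 2, 0.157 without dKO ImCD4 replicate 2 and 0.0565 without dKO ImCD4 replicate 3. At an unadjusted p under 0.05, 9 Traj segments were lower and 0 higher. The share of all tested genes at that cutoff was not counted, for these or for the unadjusted counts given below.

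The 3 dKO ImCD4 libraries lay below all 3 controls for 10 of 27 tested Traj segments, against 15.7% of all tested genes. Traj19, the most counted, was at 9.77, 8.07 and 6.25 CPM in control ImCD4 and 4.91, 5.45 and 6.42 CPM in dKO ImCD4. These overlapped at 1 library, and the log2 fold change of -0.52 ± 0.22 did not pass (edgeR adjusted p = 0.132). Traj17, a neighbour with the motif, was at 4.36, 4.42 and 4.66 CPM in control and 2.85, 2.78 and 2.67 CPM in dKO. Its groups were apart, yet its log2 fold change of -0.69 ± 0.28 had an edgeR adjusted p of 0.119. Traj18, the J of the invariant NKT chain, had a log2 fold change of -0.57 ± 0.25 (adjusted p = 0.154), and Traj33, the J of the MAIT chain, -0.39 ± 0.35 (adjusted p = 0.505).

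Median differences of tested segments were similar along the cluster, though few segments of its 5′ end could be tested. Median log2 fold changes in ImCD4 were -0.57 over 15 tested segments of Traj1 to Traj20, -0.56 over 10 of Traj21 to Traj40 and -0.51 over the 2 tested segments of Traj41 to Traj61. Summed over all members, tested or not, the ratio of dKO to control ImCD4 was 0.649 for Traj1 to Traj20 and 0.677 for Traj21 to Traj40, both without overlap. For Traj41 to Traj61 it was 0.791, and the groups overlapped. The share of Traj counts on Traj41 to Traj61 was 9.38%, 10.8% and 8.07% in control ImCD4 and 10.2%, 13.1% and 10.4% in dKO ImCD4, which overlapped. The mean J number was 21.4, 21.7 and 20.6 in control ImCD4 and 22.1, 23.3 and 21.7 in dKO ImCD4. The groups only just failed to overlap, and differed by 1.15 ± 0.58 (SE). The ImCD8 groups overlapped, with mean J numbers of 21.6 to 22.7 for control libraries and 21.7 to 22.5 for dKO libraries.

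Traj61 and Traj60, both without the motif and at the end of the J cluster nearest the V segments, went the other way in ImCD4, though their counts were too low to test and they were chosen after their values were seen. Traj61 had 1, 0 and 2 counts in control ImCD4 and 3, 5 and 7 in dKO ImCD4. Traj60 had 2, 2 and 4 counts in control and 9, 9 and 6 in dKO. In ImCD8 Traj60 had 3, 4 and 3 counts in control and 1, 5 and 2 in dKO. The ImCD8 counts of Traj61 are not reported here. All these counts are unscaled, and every dKO ImCD4 library held more gene counts than every control ImCD4 library.

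**Figure D3:**
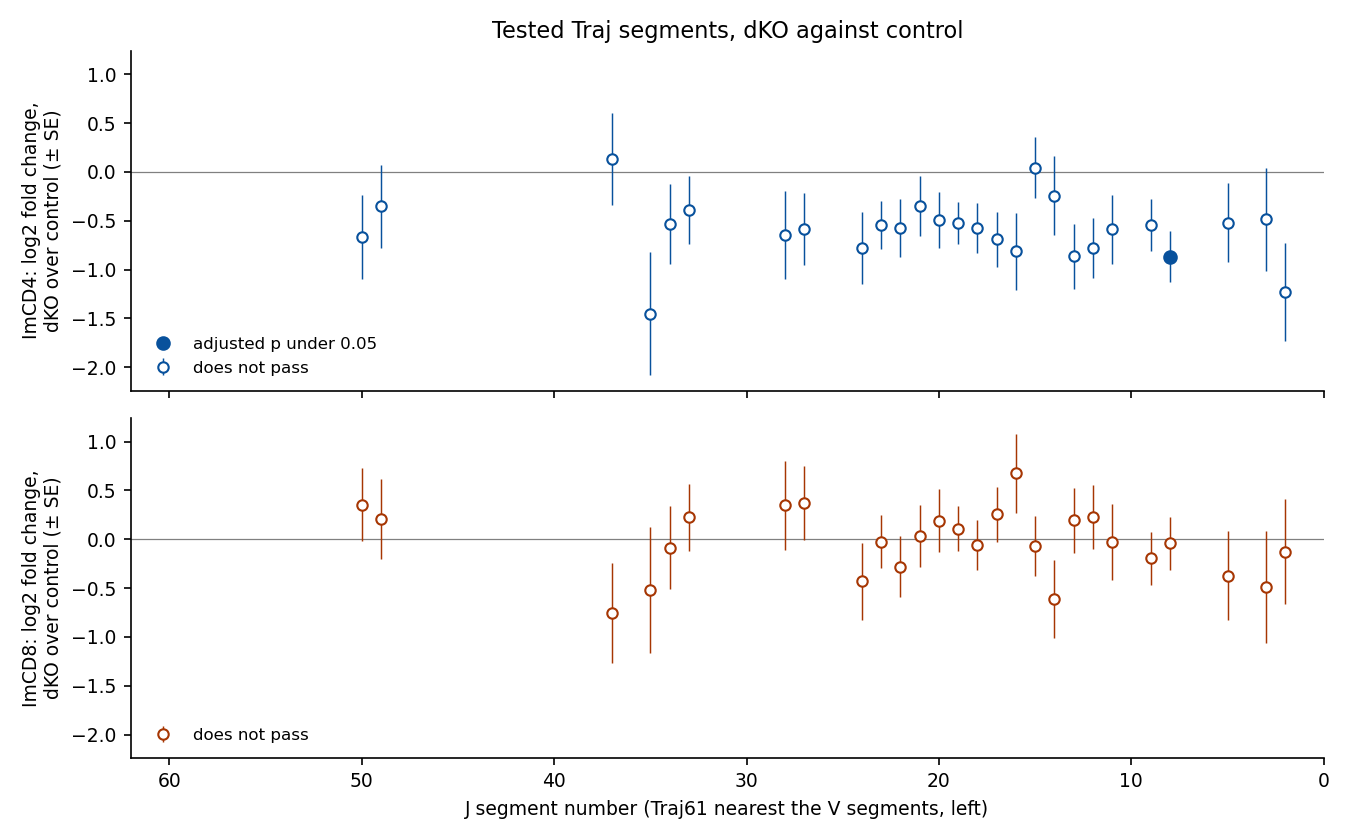
Log2 fold change, dKO over control, for the 27 tested Traj segments (y axis, error bars 1 SE) against J number (x axis), in ImCD4 above and ImCD8 below. In ImCD4, 25 of 27 points lie below 0 and Traj8 is filled because it passed the test. In ImCD8 the points lie on both sides of 0.

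In ImCD8 no Traj segment passed the edgeR test for dKO against control, and none had an unadjusted p under 0.05 in either direction. The median log2 fold change over the 27 was -0.03, and DESeq2 and limma-voom called 0 as well. Of all tested genes, 2.62% passed as higher and 3.53% as lower in that comparison. The dKO effect itself was then compared between the populations with an interaction contrast, in which 0.254% of all genes passed as higher in ImCD4 and 0.179% as lower. None of the 27 Traj and none of the 67 Trav segments passed, while 5 Traj and 4 Trav had an unadjusted p under 0.05, all on the lower side. A difference in J levels between ImCD4 and ImCD8 in response to dKO was thus not established for any single segment.

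Few V segments passed the test for dKO. No Trav segment passed the edgeR test in ImCD4, where 7.26% of all genes passed as higher, and 2 were higher and 6 lower at an unadjusted p under 0.05. The 3 dKO ImCD4 libraries lay above all controls for 5 of 67 Trav segments (18.1% of all genes) and below them for 11 (15.7%). In that comparison limma-voom called 3 and DESeq2 called 0. In ImCD8, 1 of 67 passed, Trav14-1, one of the Trav14 family known in older nomenclature as V alpha 2. Trav14-1 was at 16.5, 16.3 and 13.8 CPM in control ImCD8 and at 20.3, 22.2 and 20.1 CPM in dKO ImCD8. In ImCD4 it was at 15.9, 16.0 and 14.7 CPM in control and 19.4, 18.1 and 21.8 CPM in dKO. The dKO libraries lay above the controls in both populations. The log2 fold change was 0.43 ± 0.12 in ImCD8 (edgeR adjusted p = 0.0453) and 0.35 ± 0.12 in ImCD4 (adjusted p = 0.0671). In ImCD8 the dKO libraries lay above all controls for 6 Trav and 1 Traj segments (10.3% of all genes) and below them for 1 of each (11.5%). The ImCD8 call of Trav14-1 was lost when any 1 of the 6 ImCD8 libraries was left out, with an adjusted p of 0.0684 to 0.177.

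The share of V counts that fell on 1 set of duplicated copies, those named with n, also differed by genotype. Copies named with n held 15.7%, 14.6% and 15.5% of Trav counts in control ImCD4 and 13.1%, 13.3% and 13.7% in dKO ImCD4. Among ImCD8 libraries the values were 15.7%, 15.6% and 15.8% for control and 14.0%, 12.8% and 13.4% for dKO. All 6 dKO libraries lay below all 6 controls, a split that was looked for after the values were seen. Copies named with d showed no such separation in ImCD4, at 14.7% to 16.7% for control against 16.3% to 17.1% for dKO. In ImCD8 the d copies overlapped as well, at 11.29% to 11.72% for control and 11.66% to 12.73% for dKO. The labels do not give the strain of either genotype, and the part of allelic differences at the locus was not tested.

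The clearest differences in V segments were between ImCD8 and ImCD4 thymocytes. The ImCD4 gate also selected H2-Kb- cells and the ImCD8 gate TCRb+ cells. Lineage and these gate differences cannot be told apart, in this and the later comparisons of the populations. In controls, 10 of 67 tested Trav segments were higher in ImCD8 and 13 lower by the edgeR test, where 23.1% of all tested genes passed as higher and 22.1% as lower. In dKO, 20 were higher and 8 lower, against 22.1% and 21.6% of all genes. Shares of called segments were thus near or below those of all genes in controls, except that 20 of 67 exceeded the share of all genes in dKO. Both comparisons called the same 16 segments in the same direction, 9 higher and 7 lower in ImCD8, and no segment was called in opposite directions. The share of all tested genes called in both comparisons was not counted, so these 16 are a description only. The 2 comparisons use different libraries. Libraries did not overlap for 16 Trav segments higher and 15 lower in control (28.8% and 27.6% of all genes), and for 32 higher and 12 lower in dKO (25.6% and 26.2%). Reads aligned to several places, which no gene row counts, were 4.001% to 4.25% of tallied reads in control ImCD4 and 4.61% to 4.76% in control ImCD8. In dKO they were 3.87% to 4.19% in ImCD4 and 4.47% to 5.39% in ImCD8, again without overlap, and their part in the V differences was not tested.

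Trav16 differed most. It was at 4.59, 4.64 and 4.24 CPM in control ImCD4 and at 14.0, 14.4 and 12.1 CPM in control ImCD8. In dKO it was at 2.94, 3.35 and 4.17 CPM in ImCD4 and 14.0, 13.1 and 12.4 CPM in ImCD8. Every ImCD8 library lay above every ImCD4 library. The log2 fold change for ImCD8 against ImCD4 was 1.58 ± 0.17 in control (edgeR adjusted p = 1.24e-06) and 1.92 ± 0.17 in dKO (1.71e-07). Its near copy Trav16n was higher in ImCD8 as well, by 1.07 ± 0.13 on the log2 scale in control and by 1.07 ± 0.13 in dKO. The third copy, Trav16d-dv11, passed only in dKO (0.83 ± 0.29, adjusted p = 0.027), with 0.51 ± 0.30 and an adjusted p of 0.173 in control.

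Trav12-2 and Trav12-1 of the Trav12 family, the V alpha 8 family of older nomenclature, rose in ImCD8. Trav12-2 was at 7.54, 9.06 and 6.78 CPM in control ImCD4 and 17.9, 19.6 and 18.3 CPM in control ImCD8. In dKO it was at 7.94, 8.80 and 8.23 CPM in ImCD4 and 17.8, 18.9 and 17.1 CPM in ImCD8. The groups were far apart in both genotypes. Log2 fold changes were 1.25 ± 0.14 in control and 1.10 ± 0.13 in dKO (edgeR adjusted p = 2.01e-06 and 6.80e-06). Trav12-1 rose by 0.82 ± 0.19 in control and 0.76 ± 0.18 in dKO. Trav19, the single member of its family and a V segment near the J cluster, rose by 0.73 ± 0.28 in control (adjusted p = 0.0406) and 1.20 ± 0.27 in dKO (adjusted p = 0.00217). The control call for Trav19 was lost when any control library other than ImCD8 replicate 3 was left out, with an adjusted p of 0.0535 to 0.207. Trav3-3, among the 6 Trav segments with the highest mean share, was higher in ImCD8 in dKO (log2 fold change 0.54) and did not pass in control. Its dKO call was kept whichever single library was left out (edgeR adjusted p up to 0.0279).

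Trav14 segments went the other way, and not as one. Trav14d-3-dv8, which can also join delta segments, was at 25.4, 23.2 and 26.0 CPM in control ImCD4 and 9.19, 12.3 and 9.14 CPM in control ImCD8. In dKO it was at 27.7, 27.4 and 29.7 CPM in ImCD4 and 12.8, 13.4 and 10.7 CPM in ImCD8. Every ImCD8 library lay below every ImCD4 library. Log2 fold changes were -1.30 ± 0.14 and -1.19 ± 0.13 (edgeR adjusted p = 1.30e-06 and 2.18e-06). Trav14-3 and Trav14n-3 also fell in both genotypes, Trav14-3 by 0.56 ± 0.15 on the log2 scale in control and by 0.59 ± 0.15 in dKO, and Trav14n-3 by 0.51 ± 0.16 and 0.69 ± 0.16. Trav14-2 fell in control (-0.48 ± 0.12, adjusted p = 0.00419) and had -0.28 ± 0.12 in dKO, which did not pass. Trav14-1, which was 92.5% to 92.9% identical to the other Trav14 segments, had log2 fold changes of -0.00 ± 0.12 in control and 0.08 ± 0.12 in dKO. Trav14n-3 lost its call in control without the 4 libraries of replicate 3 (adjusted p = 0.0718), without control ImCD4 replicate 1 (0.0640) and without control ImCD8 replicate 3 (0.0795).

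**Figure D4:**
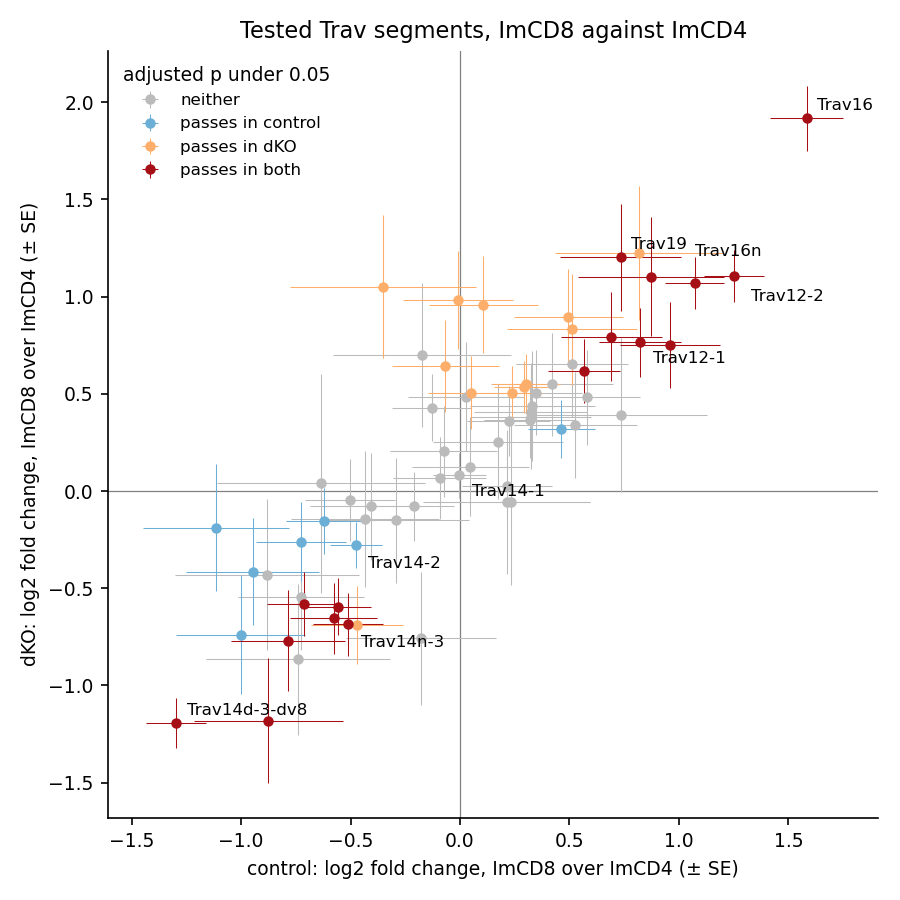
Log2 fold change of ImCD8 over ImCD4 for the 67 tested Trav segments, in control (x axis) and in dKO (y axis), with error bars of 1 SE and colours for the comparisons in which the adjusted p was under 0.05. Trav16, Trav16n and Trav12-2 lie at upper right, Trav14d-3-dv8 at lower left, and no point called in both comparisons lies in an opposite quadrant.

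Summed by family, the same shift covered a large part of the V counts. The 9 Trav14 members held 23.5% to 26.2% of Trav counts in ImCD4 libraries and 15.3% to 16.4% in ImCD8 libraries. The 3 Trav16 members held 4.05% to 4.78% in ImCD4 and 8.67% to 10.1% in ImCD8, and the 10 Trav12 members 4.03% to 5.39% and 7.67% to 8.74%. Neither family overlapped between the populations. Trav8 and Trav13 were also higher in ImCD8, at 7.21% to 8.74% and 7.85% to 8.66% of Trav counts, against 5.10% to 6.39% and 6.28% to 6.97% in ImCD4. Trav7, at 12.9% to 14.5% in ImCD4 and 10.9% to 11.5% in ImCD8, and Trav6, at 8.18% to 9.09% and 6.45% to 7.28%, were lower. Copies named with d, which include Trav14d-3-dv8, held 14.7% to 17.1% in ImCD4 and 11.3% to 12.7% in ImCD8. By genotype, Trav14 shares were higher and Trav8 shares lower in all dKO than in all control libraries of each population. In ImCD4, Trav3 and Trav10 were also lower and Trav12 higher in dKO without overlap. All other families overlapped between the genotypes in both populations. These family shares are descriptions, with no test.

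**Figure D5:**
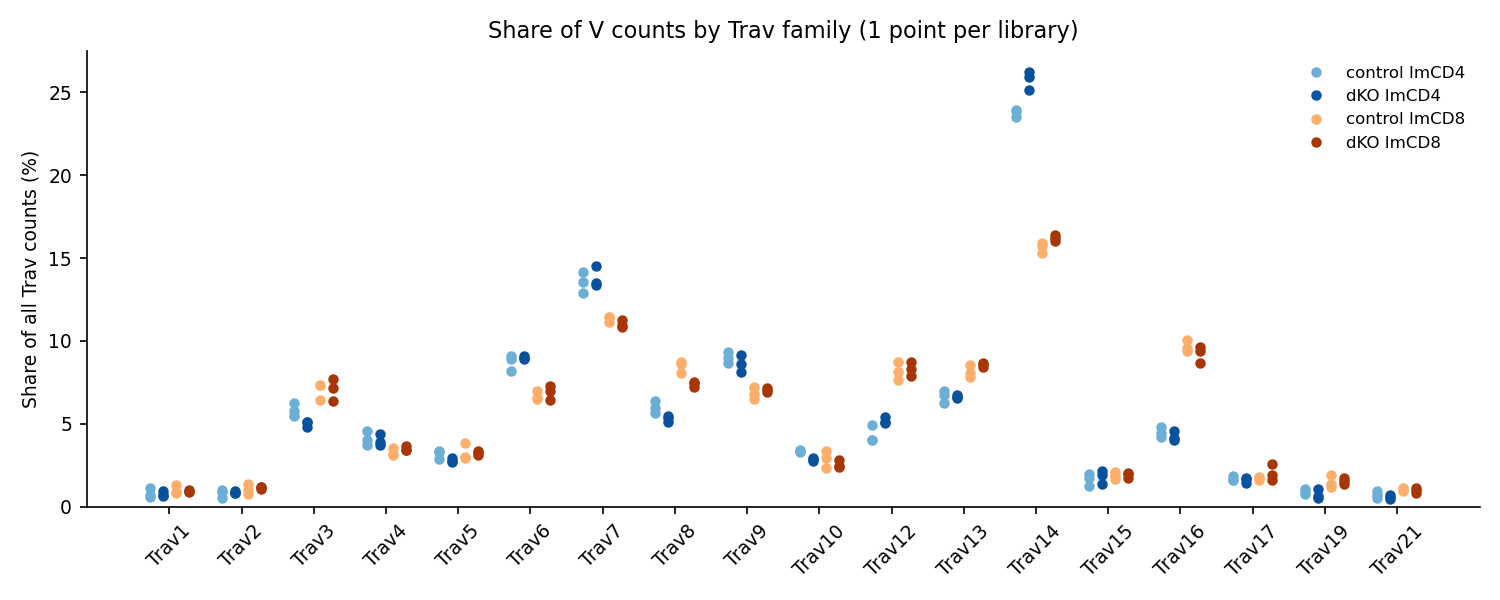
Share of all Trav counts (percent, y axis) on each Trav family holding over 1% in some library (x axis), with 1 point per library and colours for the 4 groups. Trav14 is lower and Trav12 and Trav16 are higher in the ImCD8 libraries, without overlap.

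Position along the V array differed between the populations too, by small amounts. The share of Trav counts on V segments numbered 17 and over, which lie nearest the J cluster, was 2.69% to 4.04% in ImCD4 and 4.09% to 5.44% in ImCD8. The share on Trav1 and Trav2, the most distant, was 1.23% to 2.04% in ImCD4 and 1.88% to 2.26% in ImCD8, which overlapped. The count-weighted mean distance of V segments to Traj61 was 748 to 781 kb in ImCD4 and 721 to 734 kb in ImCD8. The effective number of V segments was 50.3 to 52.7 in control ImCD4, 47.6 to 48.8 in dKO ImCD4, 51.1 to 52.2 in control ImCD8 and 51.4 to 51.5 in dKO ImCD8. The dKO ImCD4 libraries thus lay below all others in V diversity by this measure.

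Between the populations 1 Traj segment passed in each genotype, and the J segments as a whole leaned one way in controls. In control, log2 fold changes of ImCD8 against ImCD4 were below 0 for 23 of 27 tested Traj segments, with a median of -0.40 against -0.01 over all genes, and the libraries did not overlap for 5 lower and 0 higher (27.6% and 28.8% of all genes). In dKO, 21 of 27 were above 0, with a median of 0.14, and libraries did not overlap for 2 higher and 0 lower (25.6% and 26.2%). Here too the segments share their libraries and are not separate observations. The share of Traj counts on Traj41 to Traj61 was 11.5%, 10.8% and 13.1% in control ImCD8, above all control ImCD4 libraries by a narrow margin, a difference of 2.39 ± 1.03 percentage points (SE) that was 1.08 without the 4 libraries of replicate 3. In dKO that difference was 0.348 ± 0.955, with overlap. The control ImCD4 libraries enter both the control comparison here and that of dKO with control above. Traj20 was lower in ImCD8 than in ImCD4 in controls, at 8.24, 5.30 and 3.92 CPM in ImCD4 and 3.59, 2.68 and 2.87 CPM in ImCD8 (log2 fold change -0.92 ± 0.31, edgeR adjusted p = 0.0218). The call was lost without control ImCD4 replicate 1, the highest library, with an adjusted p of 0.145, and without control ImCD8 replicate 2 or 3 (0.0666 and 0.0639). In dKO, Traj50 was higher in ImCD8, at 1.02, 1.56 and 1.59 CPM against 0.446, 0.766 and 0.535 CPM (log2 fold change 1.26 ± 0.40, adjusted p = 0.0185), from 5 to 17 counts per library. DESeq2 did not call Traj50 (adjusted p = 0.0628), and its call was lost without dKO ImCD4 replicate 1 or 3 or dKO ImCD8 replicate 2 or 3 (0.0522 to 0.0779). Each was the only 1 of 27 tested Traj segments called in its comparison. Of all tested genes, 22.1% passed as lower in ImCD8 in control and 22.1% as higher in dKO, so J segments were called less often than genes in general.

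The chains of innate-like T cells could be read mainly through segments that other T cells use too. Trav11 had 4 counts and Trav11d 1 count over all 12 libraries, while Trav11n, which could be told apart from them, had 56. Because Trav11 and Trav11d share their sequence, those low counts are no measure of their use. Zbtb16, the transcription factor gene of NKT and MAIT cells, had 10 counts over the 12 libraries, at most 4 in any. The 5 genes of the NKT marker list summed to 135 to 160 CPM in control ImCD4, 146 to 174 in dKO ImCD4, 603 to 658 in control ImCD8 and 533 to 600 CPM in dKO ImCD8. Of the 3 tested, Il2rb, a cytokine receptor chain gene, rose in dKO ImCD4 (0.96 ± 0.08 on the log2 scale, edgeR adjusted p = 1.15e-06) and Slamf1 fell in dKO in both populations (-0.38 ± 0.11 and -0.41 ± 0.11). In ImCD8 against ImCD4, Il2rb and Slamf6 were higher and Slamf1 lower in both genotypes. Il18r1, a cytokine receptor gene of the MAIT marker list, rose in dKO ImCD8 (1.36 ± 0.37, adjusted p = 0.0408), and in both genotypes it was higher in ImCD8. The part of such cells in the segment values was not tested. Trav1, the V of the MAIT chain, was at 2.10 to 4.57 CPM over all libraries and did not pass in any comparison, with edgeR adjusted p from 0.233 to 0.994 over the dKO and lineage comparisons. Trac rose in ImCD8 by 0.20 ± 0.07 in control (adjusted p = 0.0332) and 0.23 ± 0.07 in dKO (0.0184), calls lost under library-size scaling alone (0.136 and 0.0629). They were also lost without any control library other than ImCD8 replicate 3 (up to 0.137) and without dKO ImCD4 replicate 1 or dKO ImCD8 replicate 1 or 2 (up to 0.0972).

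Genes that carry out or control the joining of alpha segments were read from a list of 28, all tested. In dKO ImCD4, 1 rose and 1 fell (7.26% and 6.16% of all genes), with a list median of 0.02, the same as over all genes. Dntt, which adds bases at the joints, rose (0.79 ± 0.15, edgeR adjusted p = 0.00383), and Trp53bp1, which protects broken ends, fell (-0.49 ± 0.11, adjusted p = 0.0106). In dKO ImCD8, 2 rose and 2 fell (2.62% and 3.53% of all genes), with a list median of -0.03 against 0.01. Dntt rose there by 1.26 ± 0.15 and Gata3, a transcription factor gene of CD4 lineage choice, by 0.48 ± 0.10, while Trp53bp1 fell (-0.81 ± 0.12) as did Runx1 (-0.32 ± 0.08), a factor gene of CD8 lineage choice. Rag1 and Rag2, which encode the recombinase, were low and scattered, Rag1 at 0.341 to 10.7 CPM and Rag2 at 0.106 to 1.34 CPM over the 12 libraries, and neither passed. Libraries thus held little recombinase RNA at these gates, and the highest Rag1 value was in dKO ImCD4 replicate 1. Between the populations, 6 of the 28 were higher and 11 lower in ImCD8 in control (23.1% and 22.1% of all genes), and 5 higher and 11 lower in dKO (22.1% and 21.6%), with list medians of -0.10 and -0.05. The list summed to 12514 to 13975 CPM in control ImCD4 and 7236 to 8641 CPM in control ImCD8. That sum is weighted to the most counted genes of the list. Rag1 and Rag2 make up little of it, so it is no measure of recombinase RNA.

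Gamma-delta T cells can use some of the same V segments. The 6 genes of their marker list summed to 29.5 to 32.6 CPM in control ImCD4 and 193 to 303 CPM in dKO ImCD4, and 2 of the 6 passed as higher (7.26% of all genes), the transcription factor gene Sox13 and the constant gene Tcrg-C1. In dKO ImCD8, 1 of the 6 passed, Cd163l1, as higher (2.62% of all genes). The defining constant gene Trdc was at 7.21 to 11.2 CPM in control ImCD4 and 10.1 to 12.3 CPM in dKO ImCD4, with a log2 fold change of 0.23 ± 0.19 that did not pass. Their part in the Trav values was not tested. A list of 9 alpha-beta T cell genes had a lower summed level in dKO ImCD4. Its sums there were 7111 to 7264 CPM, below the 7442 to 7844 CPM of the ImCD4 controls. Cd247, Cd5 and Cd6 passed as lower and Cd3g as higher, 3 and 1 of the 9 (6.16% and 7.26% of all genes). The constant genes Trac, Trbc1 and Trbc2 did not pass. In ImCD8 the sums overlapped and 1 gene passed, as lower. The part of these differences in the segment values was not tested. The B cell list summed to 3.07 to 5.19 CPM in control ImCD4, 5.67 to 7.75 in dKO ImCD4, 11.2 to 14.0 in control ImCD8 and 22.5 to 36.7 CPM in dKO ImCD8, and of its 2 tested genes Cd79b passed as higher in dKO ImCD8 and in ImCD8 of both genotypes. The thymic epithelial list, at 4.34 to 5.30, 5.55 to 6.96, 8.85 to 10.4 and 12.3 to 22.1 CPM in the same order, had Epcam called in the same 3 comparisons. Neither list overlapped between dKO and control in either population, and their part in the Trav and Traj values was not tested. Myeloid and erythroid lists stayed at or under 16.3 CPM, with no member called.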

How the data were processed

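RNA from 12 libraries was measured, with libraries from a SMARTer low-input mRNA kit per the labels' protocols. The authors deposited raw whole-number counts per gene symbol. Per the submitters' processing notes they used cutadapt 1.18, STAR 2.6.1 and HTSeq with mm10. Annotation, strand setting and overlap mode: not given in the sources used here. Overlapping and antisense genes therefore cannot be told apart (Trav13d-3 and Trav13n-3 each overlap another annotated gene), and a read lying across a V, a J or Trac may have gone to the ambiguous row. The 5 rows that name no gene were removed first. They held 10.5% to 16.4% of tallied reads as outside any gene, 5.37% to 5.82% as ambiguous and 3.87% to 5.39% as aligned to several places.

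Counts of all genes were fitted with edgeR 4.0.16 in R 4.3.3 (filterByExpr with minimum count 10 and minimum total 15, 13383 genes, TMM factors 0.946 to 1.04, robust quasi-likelihood test, 4 group means, 8 residual degrees of freedom). Tests were two-sided, with Benjamini-Hochberg adjustment over all tested genes and a threshold of 0.05. Unnamed adjusted p-values come from this fit. CPM uses the TMM-scaled size of the filtered library and values after ± are SE for log2 fold changes. Sums and shares over segments carry no p. Exact permutation of 3 against 3 cannot go below p = 0.1. The fit was tested on simulated data.

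Sequences and positions came from GENCODE M21, which matched 188 of 190 members. The segments and lists were chosen with earlier results of these data known. Named segments are the 6 Trav and 6 Traj with the highest mean share, up to 5 of each with the smallest p among those called per comparison, the invariant-chain segments, Trac and called members of the recombination list. Others named serve to complete a family or were chosen after their values were seen. Alternatives were RLE and library-size scaling, no filter, over 5 CPM in 3 libraries, DESeq2 1.42.0, limma-voom (limma 3.58.1), only the libraries compared, each library left out, the 4 libraries of replicate 3 left out, and other J sets. Using only J segments with the motif, and a model term for the 4 libraries of replicate 3, were added after the data were seen. The MAIT marker list is not reported here in full.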

Additional observations from a re-analysis of the deposited data

How the results depend on the processing

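Of 326 values for 22 single-segment results under alternatives, 279 kept direction and call, 47 kept direction but lost the call and 0 reversed. Counts of 1 called segment were the least stable, and low depth limits Traj segments to 396 to 1002 counts per library. For dKO in ImCD4, limma-voom called 3 Trav and 2 Traj, only the libraries compared 2 and 2, the filter over 5 CPM 0 Traj, and leaving out replicate 3 of each group 2 Traj. For dKO in ImCD8, 0 Trav were called with library size only, no filter, only the libraries compared or without those 4 libraries. For ImCD8 against ImCD4 in control, 13 Trav were called without the 4 libraries, and Traj calls were 2 with RLE, 4 with library size, 5 with no filter, 3 with limma-voom, 2 with only the libraries compared and 3 without the 4. In dKO, 0 Traj were called with the filter over 5 CPM, DESeq2, only the libraries compared or without the 4. Fitting these 4 libraries as an extra model term, an alternative picked once the data were seen, gave calls for 2 Trav and 2 Traj for dKO in ImCD4 and 4 Traj for ImCD8 against ImCD4 in control, and each of the 22 single-segment calls was kept. Leaving out 1 library gave 0 to 1 Traj for dKO in ImCD4, 0 to 0 Trav for dKO in ImCD8, 16 to 23 Trav and 0 to 3 Traj for ImCD8 against ImCD4 in control, and 23 to 28 Trav and 0 to 2 Traj in dKO.

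Of 276 values for 28 sums and shares, 271 moved by less than 1 SD. The difference in summed Trav level, ImCD8 minus ImCD4 in dKO, went from 41.3 to 61.7 CPM without the 4 libraries. The difference in the share on Traj41 to Traj61 was 0.740 percentage points for dKO in ImCD8 with motif-bearing J segments only (main value -0.23), 1.08 for ImCD8 against ImCD4 in control without the 4 libraries (2.39), and 1.87 in dKO with only J segments of 10 counts in a library (0.348). With those J segments, the mean J number for ImCD8 against ImCD4 in dKO differed by 0.445 (-0.26). The summed Traj difference in ImCD4 ranged from -40.0 to -19.7 CPM when 1 library was left out, and the causes of these changes were not tested. No paired analysis was possible because the labels give the libraries no replicate numbers that groups share.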
